A study of Homo sapiens with 11 samples.

Results

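The response of MDA-MB-231 cells to miR-365a-3p was taken as the comparison of 3 expression arrays of cells transfected with miR-365a-3p with 3 arrays of cells transfected with a control miRNA, which makes 6 of the 11 arrays of the series. The arrays were chosen by the cell line and treatment in their labels, and no measured value entered the choice. MDA-MB-231 is a human breast cancer line with a mesenchymal appearance that lacks the oestrogen and progesterone receptors and HER2 amplification, and every array of the line is a culture of that single line. The labels place all 6 arrays at 48 h after transfection, while the design text of the series speaks of an earlier time, and both groups carried a transfected small RNA, so that no untransfected cells entered the comparison. The other 5 arrays are of a line labelled SKOV3, an ovarian cancer line, 3 with miR-365a-3p and 2 with the control miRNA at the same labelled time, and are used only where a difference between the lines was tested. The labels number the replicates but do not say whether they are separate cultures, so p-values measure the spread between arrays, which may be technical.

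MicroRNAs are short RNAs that an Argonaute protein carries to messenger RNAs. Pairing of the seed, bases 2 to 8 of the miRNA, with a site in the mRNA leads to loss of translation and decay of the mRNA through deadenylation and decapping, so that direct targets fall and other genes change in their wake. miR-365a-3p is one of the mature products of the MIR365A hairpin, and the MIR365B hairpin gives a product with the same letters. The mature sequences of both loci in RefSeq (GRCh38.p14) are shown because they define the agent that was transfected, with the seed in capitals. The first lies at chr16:14309340-14309361 and the second at chr17:31575478-31575499, both on the plus strand.
hsa-miR-365a-3p: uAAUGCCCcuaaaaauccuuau
hsa-miR-365b-3p: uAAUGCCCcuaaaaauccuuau
Among the mature human miRNAs of that table, these were the 2 with this seed, and an mRNA site that pairs with all of it reads GGGCAUU. Transcript sequences were not used here, so no gene below is called a direct target. The platform holds rows for both precursor genes, which report the cell's own transcripts. MIR365-1 read 8.17, 8.04 and 7.81 with miR-365a-3p and 7.64, 7.64 and 7.58 in the controls (log2 fold change 0.39 ± 0.13, adjusted p = 0.0679 in limma) and MIR365-2 differed by -0.01, so neither passed the threshold. MIR365-1 did pass under 5 of the alternative settings described below.

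Values are normalized log2 values, with one row per gene symbol, and a log2 fold change is the treated group's mean minus the control group's mean, followed by its standard error after ±. A gene is said to have risen or fallen where limma's adjusted p over all 31325 genes was under 0.05. Genes that this line should not express define the lower end of the scale. The markers of blood, endothelial and liver cells (PTPRC, CD3E, CD14, HBB, PECAM1, CDH5 and ALB) had means between 7.27 and 7.48 in both groups, and ESR1, PGR and CDH1 had means between 7.26 and 7.31. VIM, CAV1, CD44 and AXL had control means between 11.3 and 13.8, as fits the label of the line, whereas ZEB1 was near the lower end at 7.66. Genes with a mean above 8 over the 6 arrays, 6846 of all, are called expressed here, and a mean up to 7.48 is called at the floor and one up to 8 near it. A fall that ends near 7.4 is limited by this floor and is a lower bound on the change.

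The 6 arrays split by treatment. Over the expressed genes, arrays of one group correlated at 0.969 to 0.994 and arrays of different groups at 0.724 to 0.857. The miR-365a-3p replicate 1 was the farthest from the controls, at 0.724 to 0.777. Before quantile normalization, the upper quartile of the deposited values was 7.56 to 7.65 in the miR-365a-3p arrays and 7.86 to 7.93 in the controls, so the normalization raised the middle range of the treated arrays relative to the controls. The results under other scalings are given where they differ. Each array reads the RNA of a whole culture, so fewer cells in a given state and less RNA per cell cannot be told apart.

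After miR-365a-3p, 4511 genes rose (14.4%) and 3663 fell (11.7%) of 31325, which together is 26.1%. Of the expressed genes, 39.5% rose and 27.0% fell, together 66.5%, so lists made up of expressed genes are to be read against these higher shares. Rises therefore made up 55.2% of all calls, but 40.9% with arrays centred on their medians and 28.8% without further normalization, so the balance of rises and falls depended on the scaling. All miR-365a-3p arrays were above all control arrays for 21.0% of genes and below them for 17.0%. An exact permutation test within 3 against 3 arrays cannot go below p = 0.1, and the calls rest on the variance shared across genes by limma. The sizes were unequal: among expressed genes that passed, 928 fell and 450 rose by at least 1 on the log2 scale, 137 fell and 3 rose by at least 2, and 20 fell and none rose by at least 3. The share that fell was 28.9% among genes with a mean of 8 to 9 and 16.5% above 12.

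**Figure D1:**
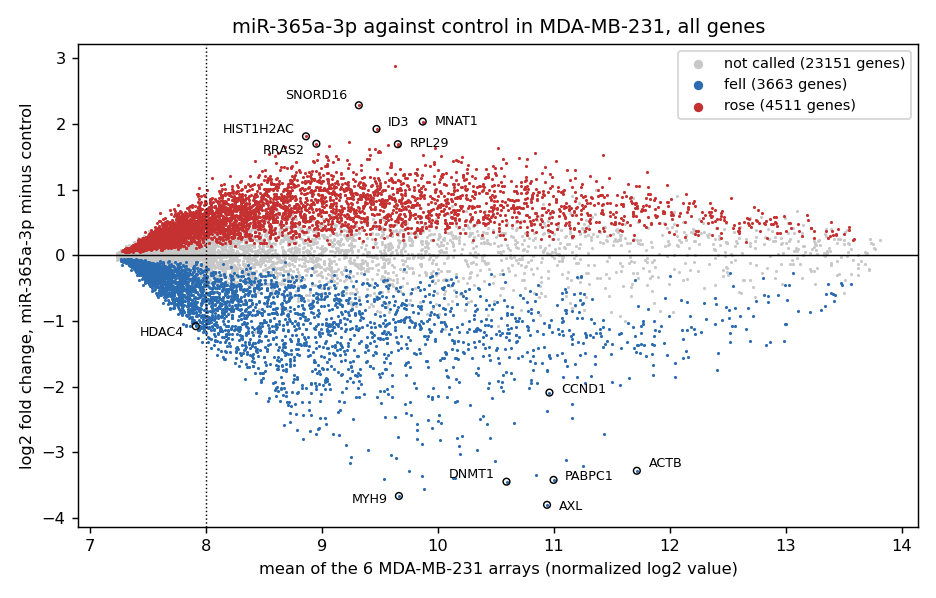
Log2 fold change of miR-365a-3p minus control (y axis) against the mean normalized log2 value of the 6 MDA-MB-231 arrays (x axis), 1 point per gene, with genes that rose in red, genes that fell in blue and others in grey. The dotted line marks a mean of 8, the circles mark some of the genes named in the text, and the falls reach -3.80 (AXL) while SNORD16, the highest circled gene, lies at 2.29.

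The largest falls were in genes of diverse function. AXL, a receptor tyrosine kinase of mesenchymal tumour cells, read 8.38, 9.20 and 9.54 with miR-365a-3p and 12.84, 12.75 and 12.93 in the controls, a log2 fold change of -3.80 ± 0.41 (adjusted p = 0.000252). MYH9, the heavy chain of nonmuscle myosin IIA, read 7.85, 7.80 and 7.85 with miR-365a-3p and 11.11, 11.72 and 11.66 in the controls, and DNMT1, the maintenance DNA methyltransferase, read 8.47, 8.91 and 9.22 with miR-365a-3p and 12.18, 12.26 and 12.50 in the controls. For all 3 genes the groups were more than 2 log2 units apart. The fold changes were -3.67 ± 0.20 for MYH9, -3.45 ± 0.34 for DNMT1, -3.42 ± 0.26 for the poly(A)-binding protein PABPC1, -3.40 ± 0.27 for the large neutral amino acid transporter SLC7A5, -3.39 ± 0.31 for the RNA-binding protein FAM120A, -3.36 ± 0.12 for the dynein heavy chain DYNC1H1 and -3.34 ± 0.27 for cyclin I, CCNI. The rows LOC100134134 and LOC341315, which the symbol tables leave unnamed, completed the 10 with -3.56 and -3.39.

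The largest rises were smaller and included noncoding RNAs. The row MIR1974 read 11.28, 10.89 and 11.04 with miR-365a-3p and 9.42, 7.53 and 7.60 in the controls, and control replicate 1 stood apart from the other controls, so its change of 2.89 ± 0.48 carries a large error. SNORD16, a box C/D small nucleolar RNA, rose by 2.29, and the snoRNA host gene SNHG6 by 1.68. MNAT1, the assembly factor of the CDK-activating kinase, read 11.06, 10.85 and 10.75 with miR-365a-3p and 8.72, 9.10 and 8.73 in the controls, a change of 2.04 ± 0.20 (adjusted p = 0.000153). ID3, an inhibitor of helix-loop-helix transcription factors, rose by 1.93, the histone gene HIST1H2AC by 1.81, the spliceosome protein gene CD2BP2 by 1.72, the RAS-related GTPase RRAS2 by 1.70, the ribosomal protein gene RPL29 by 1.69 and the Sm protein gene SNRPD1 by 1.67. The 3 arrays of each group did not overlap for any of these 20 genes, which the choice of them required.

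**Figure D2:**
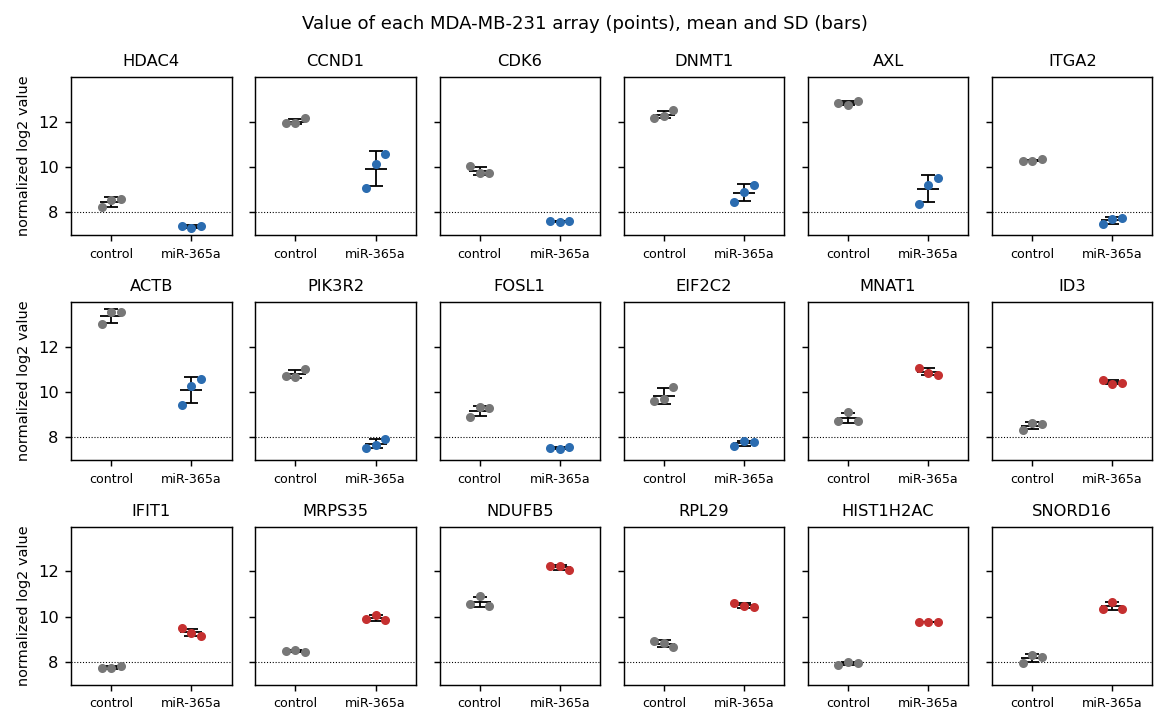
Normalized log2 value (y axis) of each of the 3 control and 3 miR-365a-3p arrays of MDA-MB-231 cells (points, replicates 1 to 3 from left to right), with the group mean and SD as bars, for 18 genes named in the text. The dotted line marks a value of 8, and the groups do not overlap in any panel, with HDAC4, CDK6, ITGA2, PIK3R2, FOSL1 and EIF2C2 ending below the line after miR-365a-3p.

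The study cites earlier work that names HDAC4, cyclin D, BCL2 and NKX2-1 as targets of this miRNA, and cyclin D is read here as CCND1. Of these 4, 3 fell in limma. HDAC4, a class IIa histone deacetylase, read 7.39, 7.31 and 7.42 with miR-365a-3p and 8.22, 8.54 and 8.60 in the controls, a change of -1.08 ± 0.09 (adjusted p = 9.16e-05) that ended at the floor. CCND1, cyclin D1, read 9.07, 10.11 and 10.57 with miR-365a-3p and 11.94, 11.93 and 12.15 in the controls, and its change of -2.09 ± 0.36 was the larger of the pair, with miR-365a-3p replicate 1 below the other treated arrays. BCL2, the antiapoptotic founder of its family, read 7.37, 7.33 and 7.37 with miR-365a-3p and 7.48, 7.49 and 7.44 in the controls, so its call rests on a difference of -0.11 at the floor. NKX2-1, a transcription factor of lung and thyroid, was at the floor in all 6 arrays and differed by -0.01 (adjusted p = 0.872).

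Counted over all rows, genes of chromatin regulators fell more often than they rose. Of 27 genes of histone acetyltransferases and their complexes, 8 rose and 14 fell, against 14.4% and 11.7% of all genes. Of the 8 expressed members, 4 rose and 3 fell, so the excess of falls lay in members with a mean of 8 or less. TRRAP, the large scaffold of acetyltransferase complexes, changed by -1.29 ± 0.07, KAT2B by -1.02 ± 0.16 and BRPF1 by -0.86 ± 0.15, whereas HAT1, which acetylates new histones, rose by 0.95 ± 0.21. CREBBP and EP300, the paired coactivator acetyltransferases, were below a mean of 8 and fell by 0.49 and 0.17, of which CREBBP did not pass under cyclic loess. The deposited values without further normalization left 1 rise in this list, and 5 members rose without miR-365a-3p replicate 1. Of 24 deacetylases and corepressors, 9 fell and 3 rose. SIN3A, a scaffold of corepressor complexes, changed by -1.41 ± 0.12, and the class I deacetylases moved apart, with HDAC1 at -1.14 ± 0.27 and HDAC2 at 0.91 ± 0.16. HDAC1 read 9.67, 10.31 and 10.63 with miR-365a-3p and 11.43, 11.14 and 11.45 in the controls and HDAC2 read 11.06, 10.85 and 10.93 with miR-365a-3p and 10.25, 9.75 and 10.11 in the controls, without overlap in either gene.

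Among 37 chromatin remodellers, 22 fell and 4 rose, with a median of -0.28 against 0.0064 over all genes. This median was -0.15 without control replicate 1, -0.52 under median centring and -0.55 without further normalization. SMARCA4, one of the alternative ATPases of SWI/SNF, read 7.99, 8.01 and 8.06 with miR-365a-3p and 10.23, 10.51 and 10.79 in the controls, a change of -2.49 ± 0.13 (adjusted p = 9.07e-06), whereas the other ATPase, SMARCA2, rose by 0.40 ± 0.09, a call lost under median centring. The NuRD ATPase CHD4 changed by -1.09 ± 0.15. Of 41 histone lysine methyltransferases and demethylases, 15 fell and 3 rose, and 8 had a mean above 8. SETD2, which trimethylates H3K36, changed by -1.25 ± 0.06, the H3K4 demethylase KDM5B by -1.07 ± 0.08 and the H3K9 methyltransferase SUV39H1 by -0.87 ± 0.14. The polycomb subunit SUZ12 read 8.94, 9.17 and 9.16 with miR-365a-3p and 11.02, 10.53 and 10.54 in the controls (-1.61 ± 0.23), while its partners EZH2 and EED changed by -0.12 and 0.24 and did not pass. HP1 gamma, CBX3, rose by 0.78 ± 0.09. Of 16 DNA methylation genes, 6 fell and 2 rose, with UHRF1, the partner that brings DNMT1 to hemimethylated DNA, at -1.17 ± 0.17 and the glycosylase MBD4 at -1.47 ± 0.19. The de novo methyltransferase DNMT3A was at the floor.

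Histone genes moved the other way. Of 92 rows, 26 rose and 5 fell, and 16 had a mean above 8. Of the rises, 24 were in the replication-dependent clusters and the others were H2AFJ and CENPA. In the clusters, 24 of 70 rose and 0 fell in limma (34 and 1 at an unadjusted p under 0.05), led by HIST1H2AC (9.78, 9.78 and 9.75 with miR-365a-3p and 7.89, 8.03 and 7.95 in the controls), HIST1H2BD at 1.65 ± 0.08, HIST2H2AA4 at 1.26 ± 0.10 and the linker histone HIST1H1C at 1.11 ± 0.11. Probes of near-identical histone genes cannot be told apart here. All 5 falls were outside these clusters: H2AFY (macroH2A) at -0.999 ± 0.13, H1F0 at -0.89 ± 0.11, H3F3B at -0.80 ± 0.22, H1FX at -0.57 ± 0.08 and H2AFX at -0.33. H3F3B lost its call without miR-365a-3p replicate 1 or 2 or any single control replicate. H2AFX lost its call without any single miR-365a-3p replicate, without control replicate 1 or 2 and under cyclic loess. The octamer ATTTGCAT, searched on both strands of promoter windows of 300 bases that hold the gene start, was in 22 of the 78 histone promoters that matched a RefSeq entry (28.2%) and in 1.80% of all promoters. It was in 8 of 24 that rose and 13 of 50 that did not pass.

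The G1 machinery was split. Cyclin D pairs with CDK4 or CDK6 to phosphorylate RB and release E2F factors, CDK inhibitors oppose it, and the CDK-activating kinase (CDK7, cyclin H and MNAT1) switches the CDKs on. Of 31 genes, 11 rose and 13 fell. Among the 21 expressed members 9 rose and 8 fell, against 39.5% and 27.0% of all expressed genes. All 3 D cyclins fell: CCND2 read 7.41, 7.60 and 7.69 with miR-365a-3p and 9.57, 9.02 and 9.16 in the controls (-1.68 ± 0.13) and CCND3 changed by -1.51 ± 0.20, beside CCND1. CDK6 read 7.60, 7.58 and 7.61 with miR-365a-3p and 10.04, 9.72 and 9.73 in the controls, a change of -2.24 ± 0.09 that ended near the floor (adjusted p = 2.66e-06), whereas CDK4 rose by 0.50 ± 0.14, a call lost without miR-365a-3p replicate 1 (adjusted p = 0.1, and 0.0527 to 0.15 under the alternatives of fit, scaling and arrays that lost it). The 3 subunits of the CDK-activating kinase rose, CDK7 by 1.15 ± 0.17, CCNH by 0.97 ± 0.14 and MNAT1 by 2.04. They belong to TFIIH, of whose 10 measured subunits, all expressed, 4 rose and 0 fell in limma (6 and 0 at an unadjusted p under 0.05), near the 39.5% of all expressed genes, with 4 and 2 called without further normalization. The fourth was GTF2H5 at 0.91. The inhibitors CDKN1B (p27) and CDKN2C (p18) rose by 0.92 ± 0.09 and 0.88 ± 0.08, and CDKN1A (p21) changed by -0.65 ± 0.08. Among the E2F and DP factors, TFDP1 changed by -1.57 ± 0.10, E2F7 by -1.50 ± 0.08 and E2F3 by -1.16 ± 0.14, while E2F5 and TFDP2 rose by 0.84 ± 0.13 and 0.68 ± 0.06.

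Replication genes moved in both directions. Of 45 genes, 9 rose and 19 fell. The 6 subunits of the MCM2 to MCM7 helicase all fell, from -1.31 (MCM6) to -0.44 (MCM5), together with the loader CDT1 at -0.96 ± 0.11 and MCM10 at -1.36 ± 0.13. Of the 6 origin recognition genes, 3 rose and 1 fell (3 and 3 under cyclic loess), with ORC3L, ORC5L and ORC6L at 1.08 ± 0.17, 1.13 ± 0.16 and -0.81 ± 0.18, and ORC6L did not pass under median centring or without further normalization. The primase gene PRIM1 rose by 1.07 ± 0.13. Without miR-365a-3p replicate 1, 12 replication genes fell, and the calls of MCM5, MCM6 and MCM7 were lost (adjusted p = 0.0873, 0.0857 and 0.134), as they were in 5 of the 6 omissions of a single array for each of them. PCNA, the sliding clamp, changed by 0.23 and did not pass. Of 45 mitotic genes, 21 fell and 6 rose. The falls were led by CENPF at -2.02 ± 0.27, topoisomerase TOP2A at -1.92 ± 0.41, the spindle factor TPX2 at -1.80 ± 0.12, the condensin subunit NCAPD2 at -1.70 ± 0.10 and the kinesin KIF11 at -1.35 ± 0.20. The rises included kinetochore and checkpoint genes, TTK at 1.28 ± 0.23, MAD2L1 at 0.96 ± 0.20, NDC80 at 0.83 ± 0.19 and SPC25 at 0.70 ± 0.11, with the centromeric histone CENPA at 0.55 and the phosphatase CDC25C at 0.59, a pair that lost its calls under median centring. Cyclin B1, CCNB1, differed by 0.09 and did not pass.

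**Figure D3:**
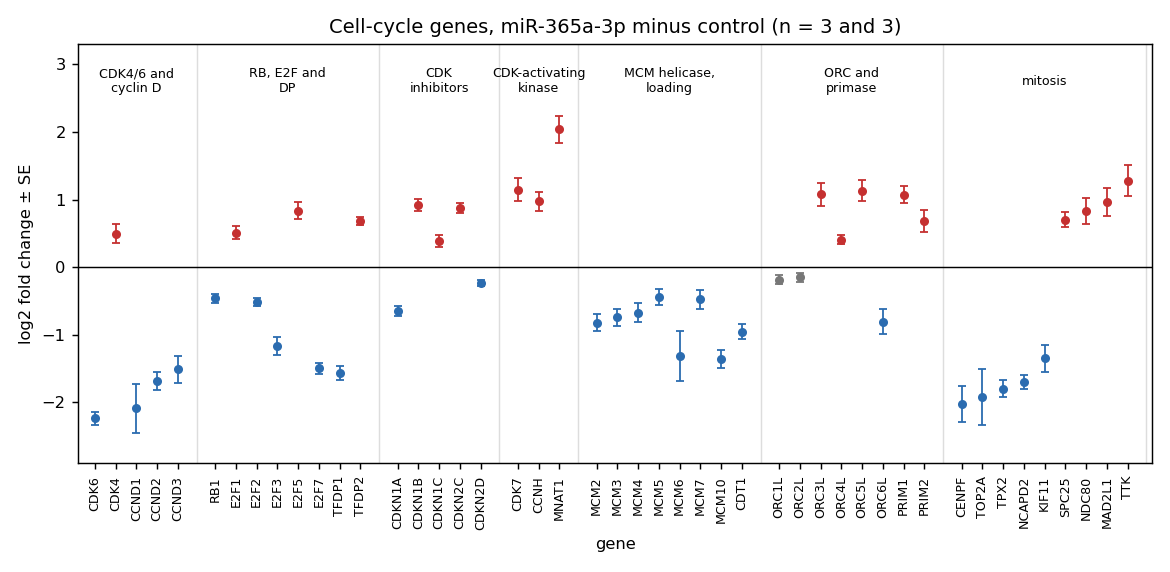
Log2 fold change of miR-365a-3p minus control in MDA-MB-231 cells (y axis) with its standard error for cell-cycle genes grouped by role (x axis), with genes that rose in red, genes that fell in blue and others in grey. The D cyclins, CDK6 and the MCM helicase lie below 0, and CDK4, the CDK-activating kinase, ORC3L, ORC5L and primase lie above 0.

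In the RAS and ERK cascade, in which RAS GTPases activate RAF, MEK and ERK kinases, 23 of 40 genes fell and 4 rose. The kinase genes ARAF and MAP2K1 changed by -1.07 and -1.07. Among transcription factor genes of the list, FOSL1 read 7.51, 7.50 and 7.56 with miR-365a-3p and 8.91, 9.31 and 9.29 in the controls (-1.65 ± 0.09, adjusted p = 1.21e-05), MYC read 9.17, 9.59 and 9.59 with miR-365a-3p and 10.71, 10.89 and 11.05 in the controls (-1.44 ± 0.12), and ETV5 changed by -1.43. Of 8 feedback inhibitors of the SPRY, SPRED and DUSP families, 7 fell and 0 rose in limma (7 and 0 at an unadjusted p under 0.05), led by SPRED1 at -1.83 ± 0.13, DUSP5 at -1.36 and DUSP6 at -0.94. GTPase genes were among the rises. RRAS2 read 9.80, 9.83 and 9.78 with miR-365a-3p and 8.14, 8.04 and 8.12 in the controls, and NRAS and RRAS rose by 0.84 ± 0.15 and 0.78 ± 0.13.

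The PI3K, AKT and mTOR pathway relays growth factor signals to cell growth. Of its 45 genes, 20 fell and 8 rose. Among the 22 expressed members 9 fell and 8 rose, against 27.0% and 39.5% of all expressed genes. The excess of falls thus lay mainly in members with a mean of 8 or less. The regulatory subunit PIK3R2 read 7.53, 7.67 and 7.93 with miR-365a-3p and 10.68, 10.67 and 11.001 in the controls, a change of -3.07 ± 0.20 (adjusted p = 2.39e-05). The adaptor IRS2 changed by -1.20 ± 0.19, mTOR itself (FRAP1) by -1.14 ± 0.08 and SGK1 by -1.05 ± 0.10. The Ragulator genes C7orf59 (LAMTOR4) and C11orf59 (LAMTOR1), whose products hold mTOR complex 1 at the lysosome, rose by 1.16 and 0.57. Among 34 receptor tyrosine kinases, 12 fell and 1 rose, and 5 had a mean above 8. AXL, MET (-1.25 ± 0.27) and EPHA2 (-0.57 ± 0.11) fell, and EGFR, near the floor, fell by 0.50. The rise of CSF1R by 0.34 was lost under median centring and without further normalization.

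Of 26 steroid receptors and coregulators, 11 fell and 1 rose. The oestrogen, progesterone and androgen receptors were at the floor in both groups and differed by 0.03 or less. The falls included the coactivator NCOA6 at -1.31 ± 0.18, the HSP90 cochaperone PTGES3 at -1.49 ± 0.19 and NCOA3, near the floor, at -0.63. The glucocorticoid receptor NR3C1, near the floor, fell by 0.12, and its responsive genes SGK1 and FKBP5 fell by 1.05 and 0.76.

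Adhesion, cytoskeleton and matrix genes held many of the deepest falls. Integrins span the membrane and tie matrix to actin through talin, vinculin and actinin. Of 36 integrin and focal adhesion genes, 21 fell and 2 rose, with a median of -0.75, or -0.42 without miR-365a-3p replicate 1. ITGA2, a collagen-binding integrin, read 7.48, 7.68 and 7.77 with miR-365a-3p and 10.25, 10.28 and 10.33 in the controls, a change of -2.64 ± 0.07 (adjusted p = 7.41e-07) that ended near the floor. ITGA3 changed by -2.16 ± 0.31, ITGA5 by -1.71, ITGA6 by -1.47, ITGAV by -1.27, talin TLN1 by -1.57, the focal adhesion kinase PTK2 by -1.30 and the actin crosslinker ACTN1 by -2.78 ± 0.25. The common partner ITGB1 changed by -0.72 and did not pass. CAV2 rose by 0.74 ± 0.05.

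Of 60 actin and myosin genes, 29 fell and 8 rose. ACTB, beta-actin, read 9.43, 10.24 and 10.55 with miR-365a-3p and 13.02, 13.52 and 13.53 in the controls, a change of -3.28 ± 0.34, and the GTPases RHOA and RAC1 and the ARP2/3 subunit ACTR2 changed by -2.48, -2.16 and -2.28. Of the 12 myosin heavy chain genes 8 fell and 0 rose in limma (9 and 0 at an unadjusted p under 0.05). CDC42, a GTPase of filopodia, rose by 0.84 ± 0.12, and the myosin light chain MYL6 by 0.53 ± 0.09. ACTB and GAPDH are often used to scale expression measurements, and of 20 genes in such use 8 fell (5 without control replicate 3), among them POLR2A at -1.47 ± 0.22 and GAPDH at -0.67, whose call was lost under median centring, and 4 rose, among them B2M at 0.51 ± 0.11. Of 77 motor and tubulin genes, 26 fell and 9 rose. The dynein and dynactin genes split, with DYNC1H1 and DYNC1LI2 (-1.98 ± 0.33) falling and the small subunits DYNLT3 and DCTN6 rising by 1.04 and 1.01.

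In the matrix, 21 of 75 genes fell and 1 rose, the riser being FN1 at 0.09 near the floor, a call lost without further normalization. LAMC1, the gamma chain shared by most laminins, read 8.07, 7.96 and 8.19 with miR-365a-3p and 11.19, 11.12 and 11.04 in the controls, THBS1, a matricellular glycoprotein, read 9.14, 9.08 and 9.28 with miR-365a-3p and 11.70, 11.48 and 11.65 in the controls, and the fold changes were -3.05 ± 0.46 and -2.44 ± 0.07. LAMA5 changed by -2.24 ± 0.14 and COL5A1 by -2.04 ± 0.24. Of the collagens, 40 of 45 had a mean of 8 or less, and no direction is drawn for those. Of 31 genes of metalloproteinases and the plasminogen system, 14 fell and 2 rose. Inhibitors and activators fell together: TIMP2 at -2.05 ± 0.07, SERPINE2 at -2.01 ± 0.37, TIMP1 at -1.63, urokinase PLAU at -1.37 and its receptor PLAUR at -1.01. The collagenase MMP1 went the other way and read 8.84, 8.81 and 8.63 with miR-365a-3p and 7.81, 7.78 and 7.77 in the controls, a change of 0.97 ± 0.07 (adjusted p = 3.64e-05).

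Markers of epithelial and mesenchymal state gave no single direction. Of 34 genes, 5 rose and 6 fell, which turned with array weights. The mesenchymal surface protein CD44 read 8.44, 8.84 and 8.93 with miR-365a-3p and 11.58, 11.03 and 11.17 in the controls (-2.52 ± 0.21), and the cadherin relative FAT1 and alpha-catenin CTNNA1 changed by -2.68 ± 0.06 and -2.03 ± 0.29. EPCAM, KRT8 and KRT7, which are epithelial, rose by 0.81 ± 0.17, 0.86 ± 0.17 and 0.98 ± 0.11, and EPCAM did not pass under median centring. The keratin KRT18 did not rise with them, with a mean of 8.01 (SD 0.22) in the controls and 7.85 (SD 0.06) with miR-365a-3p. VIM changed by -0.57 and did not pass, and CDH1, CDH2, SNAI1, TWIST1 and ZEB1 were at or near the floor and did not pass. In TGF-beta signalling, the receptors TGFBR2 and ACVR1 and the effector SMAD3 changed by -1.59 ± 0.25, -2.14 ± 0.08 and -1.42 ± 0.08. ID1, ID2 and ID3, known as targets of BMP signalling, rose by 0.99, 1.18 and 1.93, and ID3 read 10.54, 10.36 and 10.40 with miR-365a-3p and 8.32, 8.61 and 8.59 in the controls. Of the 32 genes of that pathway, 10 fell and 7 rose. Of 20 genes of the coactivator YAP, its partners and targets, 7 fell and 2 rose, and 12 and 13 fell under median centring and without further normalization. CTGF read 9.33, 9.81 and 9.80 with miR-365a-3p and 12.72, 12.77 and 13.09 in the controls, a change of -3.21 ± 0.14 (adjusted p = 3.45e-06), CYR61 changed by -1.41, and ANKRD1 rose by 0.68 ± 0.12.

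**Figure D4:**
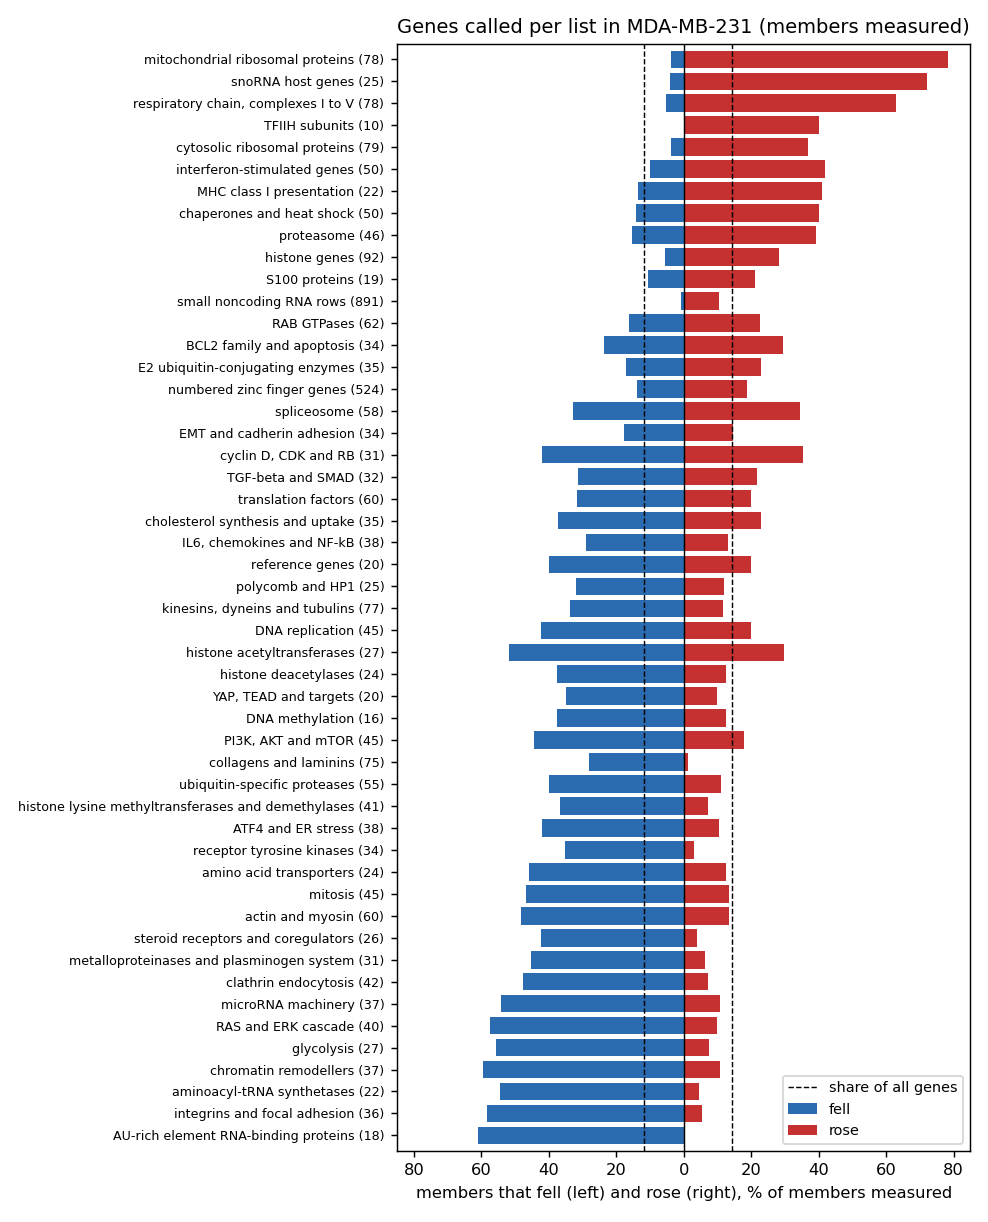
Share of members that fell (blue, to the left) and rose (red, to the right) in each of 50 gene lists, in percent of the members measured, whose number follows the name. The dashed lines mark the shares of all genes, 11.7% and 14.4%, and the lists run from mitochondrial ribosomal proteins at the top to AU-rich element RNA-binding proteins at the bottom.

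Interferon-stimulated genes rose in part. They are switched on by the ISGF3 complex, which holds STAT2 and IRF9, at the interferon-stimulated response element. Of 50, 21 rose and 5 fell, against 11 and 7 under median centring and 9 and 9 without further normalization. Among the 20 expressed members 10 rose and 4 fell, against 39.5% and 27.0% of all expressed genes. The other rises were in members with a mean of 8 or less. IFIT2 read 10.23, 10.24 and 10.34 with miR-365a-3p and 8.87, 8.47 and 8.59 in the controls (1.62 ± 0.10) and IFIT1 read 9.50, 9.27 and 9.17 with miR-365a-3p and 7.75, 7.73 and 7.83 in the controls (1.54 ± 0.19). IRF9 rose by 1.27 ± 0.09, IFI44 by 1.11 ± 0.20 and ISG15 by 1.06. Others did not move with them. MX1, RSAD2, CXCL10 and IFNB1 were at the floor and did not pass, STAT2 changed by -0.29 without passing, and the membrane proteins IFITM2 and IFITM3 and the kinase EIF2AK2 (PKR) changed by -1.57 ± 0.13, -1.34 ± 0.17 and -0.68 ± 0.06. IFITM3 read 8.92, 8.89 and 8.85 with miR-365a-3p and 10.06, 10.56 and 10.06 in the controls. Stretches of 50 bases from RefSeq promoters (GRCh38.p14) are shown to set genes that rose beside genes that fell. Capitals mark the first match to the response element, read here as GAAA, a gap of 2 bases and GAAA, or to its reverse complement, and the letters run 5′ to 3′ on the strand of the gene.
IFIT1, rose, chr10:89392487-89392536, plus strand: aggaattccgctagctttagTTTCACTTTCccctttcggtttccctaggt
ISG15, rose, chr1:1013364-1013413, plus strand: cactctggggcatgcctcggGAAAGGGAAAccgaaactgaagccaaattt
IFI44, rose, chr1:78649751-78649800, plus strand: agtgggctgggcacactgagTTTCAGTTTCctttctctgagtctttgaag
IFITM3, fell, chr11:320883-320932, minus strand: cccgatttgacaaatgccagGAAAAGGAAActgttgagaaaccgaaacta
EIF2AK2, fell, chr2:37156957-37157006, minus strand: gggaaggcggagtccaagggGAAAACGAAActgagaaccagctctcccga
The match was present in 25 of the 40 listed genes with a promoter entry (62.5%) and in 3.65% of all 27305 promoters. By direction it was in 11 of 16 that rose, 3 of 4 that fell and 11 of 20 that did not pass, so the letters did not separate the genes by response. In MHC class I presentation, 9 of 22 genes rose and 3 fell. The peptide transporter TAP1 rose by 1.12 ± 0.08, the immunoproteasome subunit PSMB10 by 0.87 ± 0.08 and B2M by 0.51, while HLA-B changed by 0.37 without passing.

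Of 38 genes of IL6, chemokines and NF-kB, 11 fell and 5 rose, and 7 fell without miR-365a-3p replicate 1. NFKB1 and STAT3, transcription factors of this pathway, changed by -1.82 ± 0.19 and -0.67 ± 0.12, whereas the chemokine IL8 rose by 0.84 ± 0.17. IL6 was near the floor and differed by -0.03. In the BCL2 family and apoptosis list, 10 of 34 rose and 8 fell, a majority that turned under median centring and without further normalization. MCL1, which opposes apoptosis, changed by -0.78 ± 0.20, a call lost without control replicate 1. The BH3-only gene PMAIP1 (NOXA) rose by 1.16 ± 0.15, the executioner caspase CASP6 by 0.81 ± 0.10, and CASP2 and the death receptor TNFRSF10B changed by -1.51 ± 0.13 and -1.16 ± 0.10.

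Mitochondrial ribosomal genes had the highest share of rises among the 50 lists plotted. The mitochondrial ribosome makes the few proteins that mitochondrial DNA encodes, and all its proteins come from nuclear genes. Of 78 such genes, 61 rose and 3 fell, with a median of 0.74. In the large subunit 41 of 47 rose and 0 fell in limma (44 and 0 at an unadjusted p under 0.05), and in the small subunit 19 of 29 rose and 3 fell. MRPS35 read 9.91, 10.07 and 9.85 with miR-365a-3p and 8.48, 8.53 and 8.47 in the controls, a change of 1.45 ± 0.06 (adjusted p = 2.75e-06), and MRPL1, MRPS18C and MRPL42 rose by 1.36, 1.30 and 1.25. MRPS27 and MRPS2 changed by -0.76 ± 0.16 and -0.61 ± 0.12. Of 78 respiratory chain genes, 49 rose and 4 fell, with a median of 0.60. Complex I had 25 of 37 that rose and 0 that fell in limma (27 and 0 at an unadjusted p under 0.05). In complex III 7 of 9 rose, in complex IV 7 of 12 and in complex V 7 of 15. NDUFB5 read 12.23, 12.26 and 12.07 with miR-365a-3p and 10.58, 10.91 and 10.49 in the controls (1.53 ± 0.11) and NDUFA5 rose by 1.45 ± 0.18. The 4 falls were the ATP synthase alpha and delta subunits ATP5A1 (-1.13 ± 0.35) and ATP5D (-0.37 ± 0.11), the flavoprotein SDHA (-0.69 ± 0.12) and COX5A (-0.68 ± 0.16). ATP5A1 did not pass under median centring or without further normalization. It also did not pass without miR-365a-3p replicate 1 or 2 or without any single control replicate. ATP5D did not pass without miR-365a-3p replicate 2 or 3 or without control replicate 2 or 3. The letters CCGGAAG, a core of ETS factor sites, were on either strand in 29 of 70 mitochondrial ribosomal promoters (41.4%), in 19 of 63 respiratory chain promoters (30.2%) and in 10.7% of all promoters. In the mitochondrial ribosomal genes they were in 23 of 55 that rose and 6 of 12 that did not pass. In the respiratory chain they were in 15 of 39 that rose and 4 of 21 that did not pass.

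Of 79 genes of the cytosolic ribosome, 29 rose and 3 fell, with a median of 0.25, and 28 of the 76 expressed members rose, near the 39.5% of all expressed genes. Under the other settings 19 to 51 rose, with medians of 0.11 to 0.60. RPL29, RPS7, RPL34 and RPS21 rose by 1.69, 1.58, 1.43 and 1.39, and RPS23 changed by -1.56 ± 0.29. The genes are abundant and have many processed copies, so single values are uncertain. Of 60 translation factor rows, 19 fell and 12 rose. Among the 52 expressed members 17 fell and 12 rose, against 27.0% and 39.5% of all expressed genes. PABPC1, which binds the poly(A) tail, read 8.85, 9.41 and 9.60 with miR-365a-3p and 12.62, 12.70 and 12.80 in the controls, and PABPC4 changed by -2.41 ± 0.12, EIF1 by -1.94 ± 0.16, EIF3F by -1.94 ± 0.21 and the scaffold EIF4G1 by -1.50. EEF1E1 and EIF2A rose by 0.97 ± 0.16 and 0.92 ± 0.11. Of 22 aminoacyl-tRNA synthetase genes, which charge tRNAs, 12 fell and 1 rose. GARS, AARS and EPRS changed by -2.26 ± 0.18, -1.94 ± 0.32 and -1.79 ± 0.42, and the riser was the accessory factor SCYE1 (AIMP1) at 0.98 ± 0.19.

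Several of these synthetases are targets of ATF4, the transcription factor of amino acid shortage and endoplasmic reticulum stress. In that list 16 of 38 genes fell and 4 rose, among them CEBPB at -1.25 ± 0.21, HERPUD1 at -1.12 ± 0.17, the serine synthesis genes PSAT1 and PHGDH at -1.01 and -0.87, asparagine synthetase ASNS at -0.75 and TRIB3 at -0.87. ATF4 itself changed by -0.09 and DDIT3 (CHOP) by 0.48, and neither passed. Of 24 amino acid transporters, 11 fell and 3 rose. SLC7A5 read 7.60, 7.85 and 8.06 with miR-365a-3p and 11.30, 10.99 and 11.43 in the controls, SLC7A1 changed by -2.88 ± 0.24, SLC38A1 by -1.73 ± 0.21 and the glutamine carrier SLC1A5 by -1.18, whereas SLC38A9, the lysosomal arginine sensor of mTORC1, rose by 0.89 ± 0.05.

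Glycolysis genes fell in 15 of 27 cases and rose in 2, with a median of -0.62. The glucose carriers SLC2A3 and SLC2A1 changed by -1.73 ± 0.18 and -1.55 ± 0.22, and HK2, the inducible hexokinase, read 7.82, 8.01 and 7.97 with miR-365a-3p and 9.33, 9.33 and 9.34 in the controls (-1.40 ± 0.05, adjusted p = 1.45e-06). GPI, PFKP, ALDOA and the regulator HIF1A changed by -1.27, -0.98, -0.84 and -1.25. In lipid synthesis, 13 of 35 genes fell and 8 rose. The fatty acid synthase FASN and ATP citrate lyase ACLY changed by -2.02 ± 0.10 and -1.86 ± 0.26, while the mevalonate and sterol enzymes SC4MOL, IDI1 and FDPS rose by 1.07 ± 0.08, 0.98 ± 0.16 and 0.79 ± 0.09.

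Of 46 proteasome genes, 18 rose and 7 fell, and 17 of the 41 expressed members rose, near the 39.5% of all expressed genes. In the 20S core, which cuts proteins, 10 of 19 rose and 0 fell in limma (12 and 2 at an unadjusted p under 0.05), led by PSMA2 at 1.01 ± 0.22. In the 19S cap 6 of 21 rose and 4 fell. The deepest falls of the list were those of the cap gene PSMD2 and the activator genes PSME4 and PSME3, with changes of -1.35 ± 0.29, -1.32 ± 0.27 and -1.21 ± 0.14. Of 50 chaperone genes, 20 rose and 7 fell, and 13 rose under cyclic loess. Among the 40 expressed members 18 rose and 6 fell, against 39.5% and 27.0% of all expressed genes. All 5 prefoldin genes rose, though 2 of them without further normalization, and 6 of 8 genes of the CCT ring that folds actin and tubulin. PFDN4, CCT2 and DNAJB4 rose by 1.29 ± 0.19, 0.94 ± 0.09 and 1.46 ± 0.21. BAG3, a heat shock factor target, changed by -2.14 ± 0.13. Of 58 spliceosome genes, 20 rose and 19 fell, a near balance that turned under most other settings. Among the 51 expressed members 18 rose and 16 fell, against the same shares of all expressed genes. Of 17 Sm and LSm proteins, which form rings around small nuclear RNAs, 11 rose and 1 fell, led by SNRPD1 at 1.67 ± 0.12, and of 13 SR and related proteins 7 fell and 3 rose. PRPF8, the scaffold of the catalytic core, changed by -3.09 ± 0.07, SF3B4 by -2.08 ± 0.14 and SRRM1 by -1.83 ± 0.16.

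**Figure D5:**
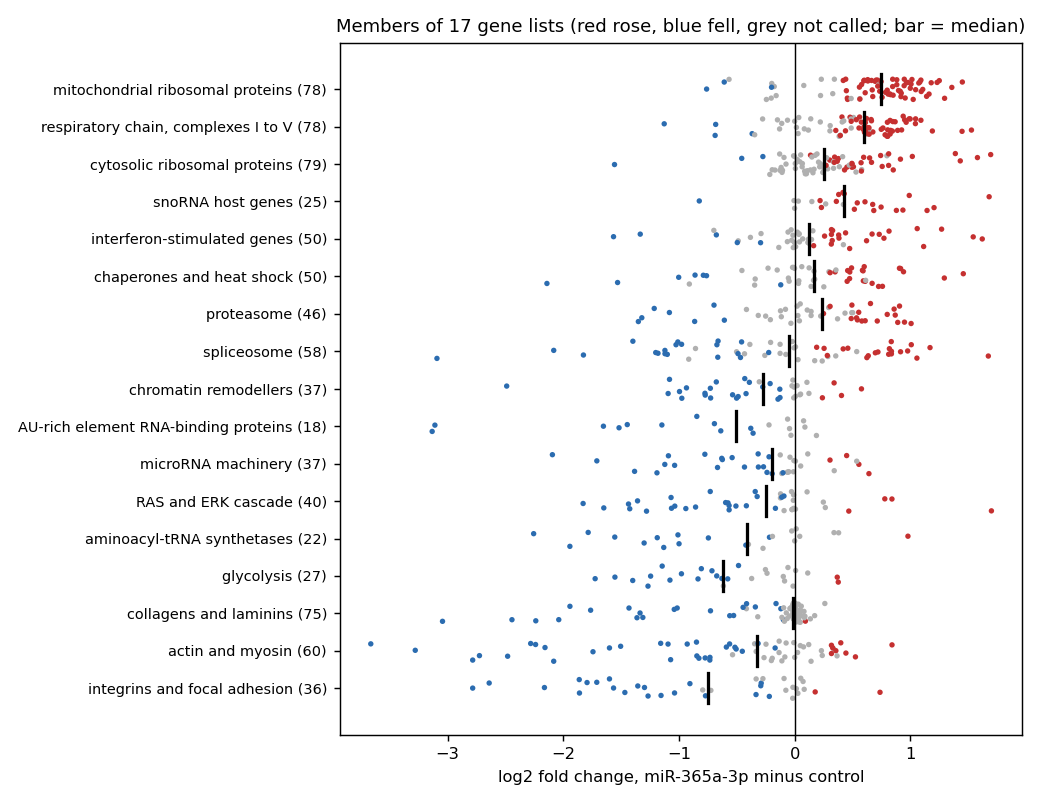
Log2 fold change of miR-365a-3p minus control (x axis) of every member of 17 gene lists (y axis, with the number of members), with genes that rose in red, genes that fell in blue and others in grey, spread vertically within a list to separate the points. The black bar is the median of the list, which runs from -0.75 for integrins and focal adhesion (-0.42 without miR-365a-3p replicate 1) to 0.74 for mitochondrial ribosomal proteins.

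Genes through which miRNAs act also fell. Of 37 genes of miRNA biogenesis, Argonaute and deadenylation, 20 fell and 4 rose. EIF2C2, which encodes Argonaute 2, read 7.61, 7.81 and 7.78 with miR-365a-3p and 9.59, 9.68 and 10.22 in the controls, a change of -2.10 ± 0.15 (adjusted p = 3.31e-05), while EIF2C1, EIF2C3 and EIF2C4 were near the floor and differed by -0.24, 0.01 and -0.05, of which EIF2C1 passed. DICER1, which cuts precursors, changed by -1.09, the decapping enzyme DCP2 by -1.38 ± 0.17, the deadenylase CNOT6 by -1.19 and GEMIN4 by -1.71 ± 0.28. The DICER1 partner TARBP2 rose by 0.64 ± 0.09. Of 18 genes of RNA-binding proteins that recognise AU-rich and similar elements, 11 fell and 0 rose in limma (11 and 1 at an unadjusted p under 0.05). ZFP36L1 and HNRNPD changed by -3.13 ± 0.22 and -3.11 ± 0.43, PCBP1 by -1.65 ± 0.19 and ELAVL1 (HuR), near the floor, by -0.36.

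In membrane traffic, 20 of 42 clathrin genes fell and 3 rose (13 fell without miR-365a-3p replicate 2), with the clathrin heavy chain CLTC at -1.45 ± 0.07 and epsin EPN1 at -3.16 ± 0.26. The RAB GTPases gave 14 rises and 10 falls among 62, a majority that turned under median centring and without further normalization. Of the 29 expressed members, 12 rose and 7 fell, near the 39.5% and 27.0% of all expressed genes. RAB22A changed by -2.44 ± 0.18. Ubiquitin-specific proteases gave 22 falls and 6 rises among 55, with USP49 at -1.57 ± 0.23 and USP16 at 0.96 ± 0.16. Among their 11 expressed members 7 fell and 1 rose, against 27.0% and 39.5% of all expressed genes. Most of the 22 falls were thus in members with a mean of 8 or less. The E2 ubiquitin-conjugating enzymes gave 8 rises and 6 falls among 35, the S100 proteins 4 and 2 among 19, with S100A10 at -1.86 ± 0.20, and the numbered zinc finger genes 98 and 73 among 524, close to the shares of all genes in both directions. The majority turned in all 3 families without further normalization, and in the E2 and zinc finger genes also under median centring. For the E2 genes it turned as well under cyclic loess and without miR-365a-3p replicate 2 or control replicate 3 (4 rises and 6 falls each) or control replicate 1 (6 and 7), so no direction is drawn for them.

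Small nucleolar RNAs guide the modification of ribosomal RNA and are cut from introns of host genes. Of 891 rows of small noncoding RNAs, 94 rose and 7 fell, and all but 30 were at or below a mean of 8. Without control replicate 3, 58 rose, and without further normalization 33 rose and 24 fell. Among the box C/D rows (SNORD) 39 of 174 rose and 0 fell in limma (48 and 3 at an unadjusted p under 0.05). Without further normalization, 17 and 4 of these were called. Among the box H/ACA rows (SNORA) 29 of 102 rose and 0 fell (39 and 2 at an unadjusted p), with 7 and 6 called without further normalization. SNORD16 read 10.36, 10.66 and 10.36 with miR-365a-3p and 7.98, 8.31 and 8.23 in the controls, and SNORD36A rose by 0.97 ± 0.11. Of 565 rows of miRNA genes, 13 rose and 6 fell, which turned to 6 and 13 without further normalization. RN7SL1, the RNA of the signal recognition particle, changed by -0.86 ± 0.13. Of 25 snoRNA host genes, 18 rose and 1 fell, with SNHG6, SNHG1 and C20orf199 (ZFAS1) at 1.68 ± 0.19, 1.20 ± 0.14 and 1.14 ± 0.16 and the faller nucleolin, NCL, at -0.83 ± 0.14.

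The promoter windows of expressed genes that fell had a median GC content of 67.0%, those that rose 63.0% and those that did not pass 65.3%. This is a description across genes, with interquartile ranges of 59.7% to 73.3% and 57.3% to 68.7% for genes that fell and rose.

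The difference between the responses of the 2 lines passed for 796 genes (2.54% of those tested), and the SKOV3 response rests on 3 and 2 arrays. The number was 481 without miR-365a-3p replicate 2 of MDA-MB-231, and no SKOV3 array was left out. The rises of HIST1H2AC, SNORD16, ID3, IFIT2 and MMP1 were larger in MDA-MB-231 cells, with SKOV3 changes of 0.23, 0.79, 0.50, 0.43 and 0.15. ID3 and MMP1 were higher in the SKOV3 controls, at 10.5 and 12.3, than in the MDA-MB-231 controls, at 8.51 and 7.78. CTGF fell further in MDA-MB-231 cells and changed by -0.70 in SKOV3 cells, where its control mean was 8.43, so that its fall there was limited by the floor. For ITGA2, FOSL1, HK2 and CCND2 the test also passed, but their means in the SKOV3 controls were 7.55, 7.59, 7.63 and 7.31, at or near the floor, where little or no fall could be measured, and these differences say nothing of a response in SKOV3. TRRAP fell further in SKOV3 cells, with a change of -2.08, but its MDA-MB-231 values started lower, at 8.81 against 9.79, and ended near the floor. For CCND1 and HDAC4 the differences of -1.31 and -0.33 did not pass (adjusted p = 0.343 and 0.376), which does not show that the lines responded alike. Of the lists, collagens and laminins held 12 of 75 genes whose difference passed, RAS and ERK cascade 9 of 40, histone genes 8 of 92 and mitochondrial ribosomal proteins 0 of 78 (limma, 8 at an unadjusted p under 0.05).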

How the data were processed

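RNA of transfected cultures was labelled and hybridised to Illumina HumanHT-12 v4 BeadChips, a bead array with 1 colour. The authors quantile normalized the arrays with lumi and deposited values with 1 row per gene symbol, which are read here as log2. Their transformation, background correction, probe summary and detection filter are not given in the sources used here, and the deposited arrays did not share a single distribution. Arrays have no read depth, so their number limits the precision.

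The deposited values of all 11 arrays were quantile normalized again and 4 group means were fitted with lmFit and eBayes of limma 3.58.1 in R 4.3.3. The contrast was miR-365a-3p minus control in MDA-MB-231, with Benjamini-Hochberg adjustment over 31325 genes and a threshold of 0.05. The difference between the lines was a contrast of the same fit. The fit was run on simulated data, in which 100 of 200 planted changes were recovered with 7 false calls. The planted changes were all in highly expressed genes, so the run does not cover genes near the floor. They were 200 among 31325 genes, against 8174 called in the data, so the run does not cover normalization under a broad change. Of the symbols, 17755 were current in RefSeq, 3305 were older names and 10265 were unmatched and kept as deposited. The gene lists and members were chosen with earlier results of these data known, and lists are described by counts and medians, which include some members that are not reported by name here. Genes were named as the 10 largest falls and rises that passed, did not overlap and had a mean above 8, the named targets, up to 4 of the largest falls and rises of each list with the same demand on the mean, and members that define a list, of which some were chosen after their values were seen. Seed sites and protein lengths were not analysed here. Promoters are those of RefSeq GRCh38.p14. Figures were drawn with matplotlib 3.10.9. Alternatives were other normalizations, filters, thresholds, variance models, array weights, a replicate block and the omission of each MDA-MB-231 array in turn. No SKOV3 array was left out. Replicate numbers did not pair the arrays (correlations of deviations -0.12, 0.04 and 0.23), so no block was used.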

Additional observations from a re-analysis of the deposited data

Results flagged for a closer look

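The response to miR-365a-3p differed between MDA-MB-231 and SKOV3 cells for 43 of the named genes, by the contrast of the 2 responses in limma at an adjusted p under 0.05. Values are the log2 fold change in MDA-MB-231 minus that in SKOV3, so a negative value marks a deeper fall or a smaller rise in MDA-MB-231 cells.

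Among adhesion, matrix and YAP target genes the differences were -2.52 for ITGA2, -1.30 for ITGA6, -2.52 for CTGF, -1.12 for CYR61, -1.16 for THBS1, -0.42 for FAT1 and 0.82 for MMP1. In the growth factor and RAS pathways they were -1.50 for FOSL1, -1.09 for ETV5, -1.29 for DUSP5, -1.22 for DUSP6, -1.05 for SPRED1, -0.26 for EGFR, -0.74 for SGK1 and -0.88 for SMAD3. In the cell cycle they were -1.69 for CCND2, -0.87 for CDK6, -1.40 for E2F7 and -1.07 for MCM10.

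Metabolic genes gave -1.41 for HK2, -1.74 for SLC2A3, -1.33 for SLC1A5, -1.01 for ASNS, -0.90 for TRIB3, -0.44 for PHGDH and 0.70 for SC4MOL. Chromatin genes gave 0.79 for TRRAP, 0.30 for EP300, -0.40 for SETD2, -0.86 for H1F0, 1.58 for HIST1H2AC, 1.37 for HIST1H2BD and 1.10 for HIST2H2AA4. RNA and translation genes gave 1.50 for SNORD16, 0.56 for RPS7, -0.70 for PRPF8, -0.77 for EIF4G1 and -0.79 for DICER1. The remaining values were 1.42 for ID3, 1.20 for IFIT2, 0.70 for IRF9, 0.78 for TAP1 and -1.29 for DYNC1H1. Of the 30 genes that fell further in MDA-MB-231 cells, 16 had a mean of 7.24 to 7.98 in the SKOV3 controls, near the lower end of the scale, where little or no fall can be measured: CCND2, CYR61, DICER1, DUSP6, E2F7, EGFR, ETV5, FOSL1, H1F0, HK2, ITGA2, MCM10, SGK1, SLC2A3, SMAD3 and TRIB3.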

How the results depend on the processing

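Without further normalization of the deposited values 2275 genes rose and 5620 fell, against 4511 and 3663. At an adjusted p under 0.01, 2910 rose and 2551 fell, and with a change of 0.5 or more on the log2 scale also required at 0.05, 2279 and 1960. With each MDA-MB-231 array left out in turn, 3505 to 4369 rose and 2995 to 3456 fell. The difference between the lines passed for 796 genes, 327 at 0.01, 449 with the added fold threshold and 1887 with array weights. With an MDA-MB-231 array left out it passed for 481 (without miR-365a-3p replicate 2) to 732 genes. The omission of a SKOV3 array was not tested. The replicate block, for numbers that do not pair the arrays, left 3781 rises, 2977 falls and 123 differences. Other normalizations, filters and variance models kept the counts within 1.5 times. The genes called were not all the same: under median centring, 56.2% of the rises and 96.4% of the falls were called again. CSF1R turned to -0.0056 under median centring and -0.0379 without further normalization, and of 257 called genes named in the text 226 kept their calls under every alternative. The majority of calls turned under some alternatives in the lists for apoptosis, cadherin adhesion, spliceosome, RAB, S100, E2 and zinc finger genes. The causes were not tested. Signal near the floor limits every fall that ends there. The planned look at protein length and seed sites was not run.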
